A study of Mus musculus with 2 samples.

Results

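The 4 MEF2 transcription factors (Mef2a, Mef2b, Mef2c and Mef2d), the 4 class IIa histone deacetylases (Hdac4, Hdac5, Hdac7 and Hdac9), Cabin1 and Mapk7 were followed in an array comparison of cells with and without an active MEF2C protein. Members were all non-control probes annotated with one of these 10 gene names, of 27670 gene names on the array. Hdac7 is listed under its older symbol Hdac7a. This gave 23 probes of 41174, whose coordinates are printed as the files give them, with the genome build not stated there. The cells, called M/E cells, derive from mouse bone marrow and were immortalised with MLL/ENL, a leukaemia fusion gene. Both groups had the genotype Mef2c del/- and differed in a retroviral vector, selected with puromycin. The MEF2C-ASR cells carried a vector for a Mef2c mutated in histone deacetylase binding and described as constitutively active, whereas the control cells carried the empty vector MYs-iPAC. Cells grew with 10% serum, 100 ng/ml SCF and 10 ng/ml of each of GM-CSF, IL6 and IL3. RNA taken 6, 24 and 48 h after seeding was pooled, and each group was 1 pooled RNA on 1 array.

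MEF2 proteins are transcription factors that bind short A/T-rich sequences through a MADS box, and they are known for roles in muscle, neurons, the B lineage and the monocyte branch of the myeloid lineage. Class IIa histone deacetylases bind the same end of the MEF2 protein and keep its target genes repressed. Phosphorylation of these deacetylases by calcium-dependent and related kinases sends them out of the nucleus, bound to 14-3-3 proteins. Cabin1 is a corepressor of MEF2 that also binds calcineurin, and Mapk7 encodes ERK5, a kinase that phosphorylates and activates MEF2 proteins. The comparison shows the transcript levels of both families in cells with and without a MEF2C that cannot bind these deacetylases. The labels state neither which part of Mef2c was deleted nor whether the vector transcript contains the sequence of either Mef2c probe.

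MEF2 genes and their repressors can themselves carry MEF2 motifs, so the promoter windows of the members were searched. Each window runs from 250 bases before a RefSeq transcription start to 50 bases after it (GRCm38.p6). The motif searched was the 10-base MEF2 consensus motif, which is its own reverse complement, so a search of 1 strand covers both. It was present in 2 of the 17 windows of the 10 members, in Mef2a at positions -2 to 8 and in Hdac5 at positions -20 to -11 relative to the start. Over all windows the motif was found in 1047 of 32851, or 3.19%. The 2 windows are shown on the strand of the gene, with the motif in capitals, because they are the member promoters that hold it. A match is a description of the sequence and no measurement of binding.
Mef2a, chr7:67372809-67373108, minus strand: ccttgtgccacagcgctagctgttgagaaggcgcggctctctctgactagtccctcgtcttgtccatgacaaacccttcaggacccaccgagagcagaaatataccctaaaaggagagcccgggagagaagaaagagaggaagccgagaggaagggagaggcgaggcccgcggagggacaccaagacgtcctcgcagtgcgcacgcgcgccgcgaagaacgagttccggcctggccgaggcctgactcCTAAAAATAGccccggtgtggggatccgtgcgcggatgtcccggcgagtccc
Hdac5, chr11:102230123-102230422, minus strand: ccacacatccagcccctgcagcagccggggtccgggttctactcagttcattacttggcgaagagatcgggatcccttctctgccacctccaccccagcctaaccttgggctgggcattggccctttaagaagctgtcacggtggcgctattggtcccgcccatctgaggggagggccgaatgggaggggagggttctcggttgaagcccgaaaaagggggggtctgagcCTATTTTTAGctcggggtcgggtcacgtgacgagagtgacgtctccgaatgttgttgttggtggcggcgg

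The values of these 2 genes differed little between the arrays, and are given with the others below. Signals are the scanner software's processed signals, with its own error for the spot (±). Differences are log2 of MEF2C-ASR over control after each array was scaled to its 75th percentile, a signal of 1240 for MEF2C-ASR and 1272 for control. No spread between replicates can be given and no test was possible with 1 array on each side, so a difference of at least 2-fold (1 on the log2 scale) served as a rule of size. Probes well above background on both arrays are called measured. This held for 18 of the 23 member probes, which belong to 9 of the 10 members, and for 24379 probes in all. Of the non-control spots, 67.5% were well above background with MEF2C-ASR and 60.1% in control, and no spot was saturated. Both arrays shared a slide and a scan.

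Mef2c was the only member with a probe at least 2-fold higher in MEF2C-ASR cells. Its probe at the 3' end of the annotated probes, on chromosome 13 (80738124 to 80738183, plus strand), gave a signal of 1969 ± 197 in MEF2C-ASR cells, against 795 ± 80.0 in control cells. The difference was 1.34, or 2.54-fold, with an error of 0.20 from the scanner's error model and an interval of 0.94 to 1.75 that covers spot error only. The other Mef2c probe lies 85.6 kb further 5' (80652493 to 80652552) and gave 7.76 ± 4.27 in MEF2C-ASR cells, against 7.86 ± 7.82 in control cells. Neither array had it well above background. One probe of the gene was therefore measured in both groups and the other in neither, and the control cells with genotype Mef2c del/- had a measured signal at the first. In MEF2C-ASR cells, transcripts of the vector, which carries a Mef2c, and of the cells' own gene cannot be told apart there. At the level of the measured probe, the central 95% of 1219 probes lay between -0.53 and 0.75, and Mef2c was outside that band. Over all measured probes 189, or 0.775%, were at least as far up. With the normexp background correction fitted on all spots the difference was 0.94, short of 2-fold.

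**Figure D1:**
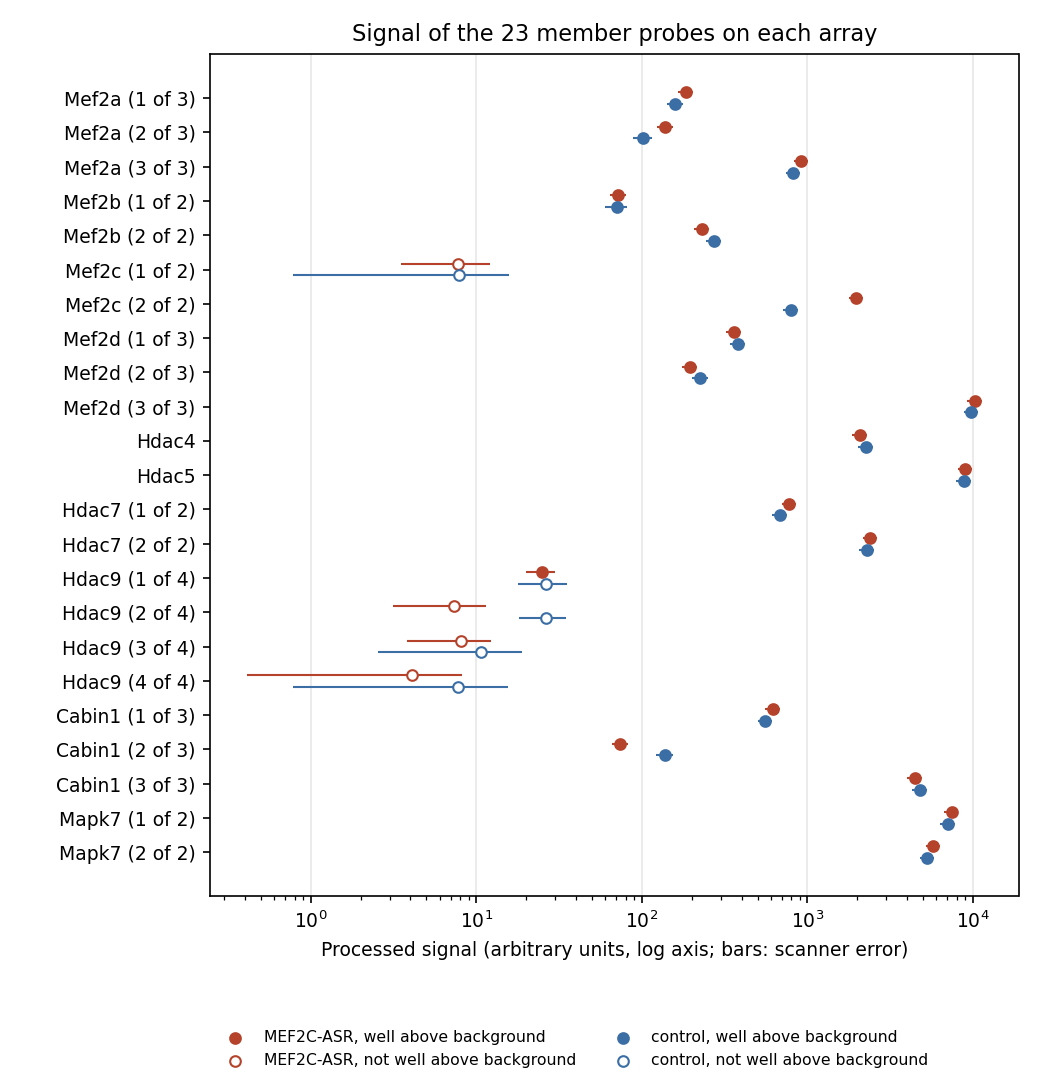
Processed signal of each of the 23 member probes (log axis, arbitrary scanner units) in MEF2C-ASR and control cells, with the scanner software's error as bars, cut off at the low end where they near 0, and open symbols for probes not well above background on that array. Among pairs of filled symbols, the Mef2c probe at 1969 in MEF2C-ASR cells and 795 in control cells is the one more than 2-fold apart.

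Mef2a, a MEF2 factor made in many tissues, was slightly higher in MEF2C-ASR cells at all 3 of its probes, and none reached 1.5-fold. The probes lie on the minus strand of chromosome 7. The probe at 63096274 to 63096333 gave 185 ± 19.1 in MEF2C-ASR cells and 160 ± 18.1 in control cells, a difference of 0.25. The probe at 63095929 to 63095988 gave 139 ± 14.5 in MEF2C-ASR cells and 102 ± 13.1 in control cells, a difference of 0.48. The probe at 63093104 to 63093163 gave 917 ± 91.8 in MEF2C-ASR cells and 821 ± 82.6 in control cells, a difference of 0.20. The mean over the 3 was 0.31, and all 3 stayed above 0 under the other scalings (the lowest was 0.05, with spike-in scaling). With the normexp background correction on all spots the 3 turned below 0, at -1.56, -1.89 and -0.24. The difference of 0.48 had an error-model interval of 0.01 to 0.95, and that spot's local background was flagged as an outlier on the MEF2C-ASR array. It was 0.19 with another background correction (normexp without spots of non-uniform background).

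Mef2b, a MEF2 factor known from germinal centre B cells, and Mef2d, a broadly made one, had probes on both sides of 0. For Mef2b, on the plus strand of chromosome 8, the probe at 68620306 to 68620365 gave 72.1 ± 8.26 in MEF2C-ASR cells and 70.7 ± 10.5 in control cells, a difference of 0.06. Its probe at 68622486 to 68622545 gave 231 ± 23.5 in MEF2C-ASR cells and 272 ± 28.3 in control cells, a difference of -0.20. Both intervals from the error model include 0, so neither direction exceeds the spot error. Mef2d has 3 probes on the plus strand of chromosome 3. The first, whose annotated span of 347 bases (88282093 to 88282439) is longer than the probe's 60-base neighbour inside it, gave 359 ± 36.1 in MEF2C-ASR cells and 380 ± 38.8 in control cells, a difference of -0.04. The neighbour (88282204 to 88282263) gave 194 ± 19.9 in MEF2C-ASR cells and 225 ± 23.9 in control cells, a difference of -0.18. The third (88285656 to 88285715) gave 10264 ± 1026 in MEF2C-ASR cells and 9760 ± 976 in control cells, a difference of 0.11. Each of the 3 probes gave nearly the same signal in both cultures, with mean difference -0.04.

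Among the class IIa deacetylases, the repressors that bind MEF2, Hdac4, Hdac5 and Hdac7 had signals well above background on both arrays and differed by less than 1.5-fold. Hdac4 (chromosome 1, 91840786 to 91840845, minus strand) gave 2069 ± 207 in MEF2C-ASR cells and 2248 ± 225 in control cells, a difference of -0.08. Hdac5 (chromosome 11, 102304793 to 102304852, minus strand), one of the 2 genes with a motif in its promoter window, gave 8967 ± 897 in MEF2C-ASR cells and 8801 ± 880 in control cells, a difference of 0.06. Hdac7, a class IIa deacetylase prominent in lymphocytes and endothelium, has 2 probes on the minus strand of chromosome 15. They gave 777 ± 77.8 in MEF2C-ASR cells and 680 ± 68.5 in control cells at 97794237 to 97794296, and 2395 ± 239 in MEF2C-ASR cells and 2281 ± 228 in control cells at 97793586 to 97793645. The differences were 0.23 and 0.11, with mean 0.17. For each of these 4 probes the error-model interval includes 0.

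Hdac9, the class IIa deacetylase known from heart, brain and regulatory T cells, was not measured in both groups by any of its 4 probes on the minus strand of chromosome 12. The probe at 32232465 to 32232524 was well above background in MEF2C-ASR cells, with 24.9 ± 4.94, but not in control cells, with 26.5 ± 8.66. The lowest signal called well above background was 19.98 in MEF2C-ASR cells and 38.3 in control cells, so the call differs between the arrays at like signals and no fold is given. The other 3 probes were not well above background on either array. They gave 7.33 ± 4.19 in MEF2C-ASR cells and 26.3 ± 8.29 in control cells at 32214715 to 32214774, and 8.06 ± 4.25 in MEF2C-ASR cells and 10.7 ± 8.16 in control cells at 31894641 to 31894700. The last, a 32-base span at 31891246 to 31891277, gave 4.11 ± 4.09 in MEF2C-ASR cells and 7.79 ± 7.75 in control cells. The 153 negative control spots reached 9.79 at their 95th percentile with MEF2C-ASR and 16.4 in control, so most Hdac9 signals lie close to that background.

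Cabin1 had the widest spread between its own probes, all on the minus strand of chromosome 10. The probe at 75400983 to 75401042 gave 619 ± 62.0 in MEF2C-ASR cells and 558 ± 56.3 in control cells, a difference of 0.19. The probe at 75381271 to 75381330 gave 74.2 ± 8.56 in MEF2C-ASR cells and 138 ± 16.0 in control cells, a difference of -0.86, so that the control was 1.81-fold over MEF2C-ASR. The probe at 75301961 to 75302020 gave 4461 ± 446 in MEF2C-ASR cells and 4783 ± 478 in control cells, a difference of -0.06. The groups stand apart at the middle probe, which is dim on both arrays, and differ little at the other 2. The interval of the middle probe from the error model was -1.32 to -0.40, yet the band holding the central 95% of probes of its level was -1.15 to 1.17. The difference was -1.004, past 2-fold, with scaling to the spike-in spots, -2.28 with normexp on all spots, and -0.51 with the normexp correction without spots of non-uniform background. The range between the Cabin1 probes was 1.04. Of 1722 genes with at least 3 measured probes, 56 (3.25%) had a range at least as wide and 816 (47.4%) had probes on both sides of 0.

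Mapk7, the ERK5 kinase that activates MEF2 proteins, was measured by 2 adjacent probes on the minus strand of chromosome 11. They gave 7421 ± 742 in MEF2C-ASR cells and 7050 ± 705 in control cells at 61570444 to 61570503. At 61570371 to 61570430 they gave 5771 ± 577 in MEF2C-ASR cells and 5293 ± 529 in control cells. The differences were 0.11 and 0.16, with mean 0.14, and each interval includes 0. Both probes gave nearly the same ratio of the groups.

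**Figure D2:**
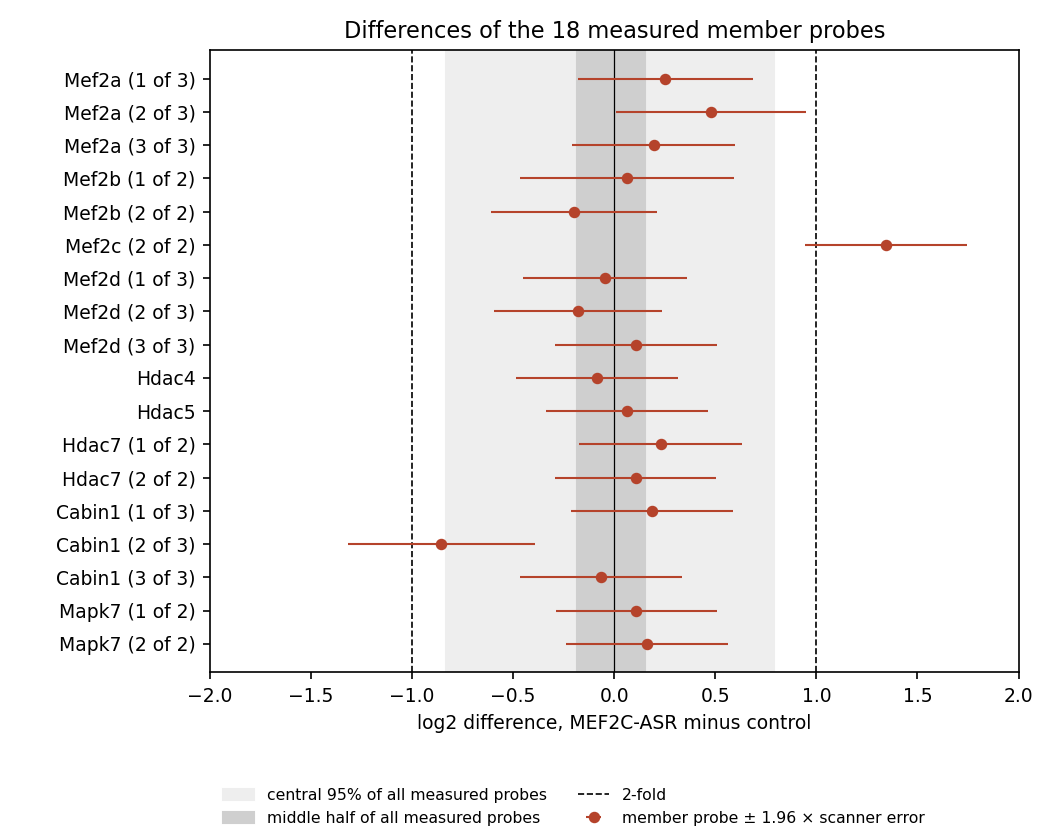
Log2 difference, MEF2C-ASR minus control, for each of the 18 measured member probes, with error-model bars (the multiple of the standard error is in the legend, spot error only). The Mef2c probe at 1.34 and the Cabin1 probe at -0.86 lie farthest from 0, and the other 16 lie within 1.5-fold.

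Of the measured member probes, 16 lay within 1.5-fold, and the Mef2c probe and the dim Cabin1 probe lay outside. The median over the 18 measured probes was 0.11, against -0.02 over all measured probes, with 12 probes above 0 and 6 below. Scaling to the arrays' spike-in spots moved the median of all measured probes to -0.17 and the member median to -0.04, with 7 member probes above 0 and 11 below. Of the 18, 1 (5.56%) was at least 2-fold higher in MEF2C-ASR cells, where the share over all measured probes was 1.60%, and 0 were at least 2-fold lower, where it was 1.78% (3.39% in either direction). The 1 higher probe is that of Mef2c, the gene the vector carries, and no probe of another member was at least 2-fold apart. At 1.5-fold, 2 (11.1%) differed, beside 9.14% over all measured probes. Of these probes, 16 were inside the central 95% of all measured probes (-0.83 to 0.79), and 17 were inside the band for their own level, Mef2c being outside. The error-model interval excluded 0 for 3 member probes (Mef2c, 1 of Mef2a and 1 of Cabin1) and for 15.0% of all measured probes. Standard errors of member probes were 0.20 to 0.27. Members share their arrays, and several share a gene, so these counts describe 2 RNA pools and are not replicates.

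**Figure D3:**
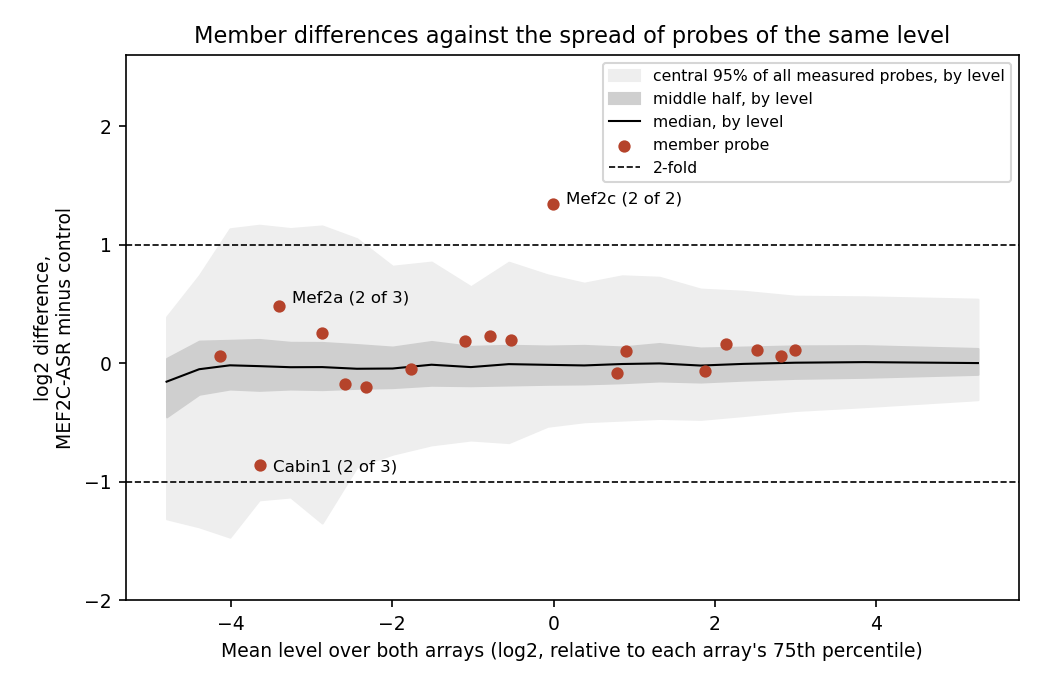
Log2 difference, MEF2C-ASR minus control, against mean level (log2 relative to the array's 75th percentile), with the 18 member probes as points, the central 95% and the middle 50% of 24379 measured probes by level as grey bands and their median as a line. Mef2c at 1.34 lies above the band of its level, -0.53 to 0.75, and the other 17 lie within theirs.

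The spread of a difference depends on level, so the share past 2-fold was set out over 4 equal groups of mean signal. It was 7.15, 3.86, 1.79 and 0.755% from the dimmest to the brightest group, which held 3, 5, 5 and 5 of the member probes. In 150 probes printed 10 or more times, the standard deviation of a difference between spots was 0.28 in the dimmest of 4 level groups and 0.06 in the brightest. Spot error at the signal of the Mef2c probe was 0.11, and Cabin1's dim probe had 0.28. Each member probe was printed once, so its spot error is taken from others of like level. This error is smaller than that of the error model for brighter probes but not for the dimmest (0.28 against 0.24 for the dim Cabin1 probe). By it 5 member probes differed by more than 2 standard deviations, namely Mef2c, the dim Cabin1 probe, Mef2a at 0.25, Hdac7 at 0.23 and Mapk7 at 0.16. The share of all measured probes past this rule was not computed, so the count has no background beside it. With spike-in scaling the Mef2a, Hdac7 and Mapk7 probes were at 0.11, 0.08 and 0.015, whereas Mef2c was at 1.20 and the Cabin1 probe at -1.004.

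The genes that act on class IIa deacetylases and MEF2 were described from 8 lists. Among 95 of 105 list genes measured, 2 (2.11%) were at least 2-fold higher in MEF2C-ASR cells and 0 were lower. Over all 16574 measured genes 3.65% were at least 2-fold apart in either direction (1.74% higher and 1.91% lower). At 1.5-fold, 7 list genes (7.37%) differed, beside 9.58% of all measured genes. The median over the 9 measured members was 0.06 by gene, against -0.03 over all measured genes, and over the lists it was 0.01. With spike-in scaling the median of each list below was under 0 (-0.02 for the kinases and -0.02 for calcineurin, calmodulin and NFAT), so the signs of these medians are relative to the scaling.

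**Figure D4:**
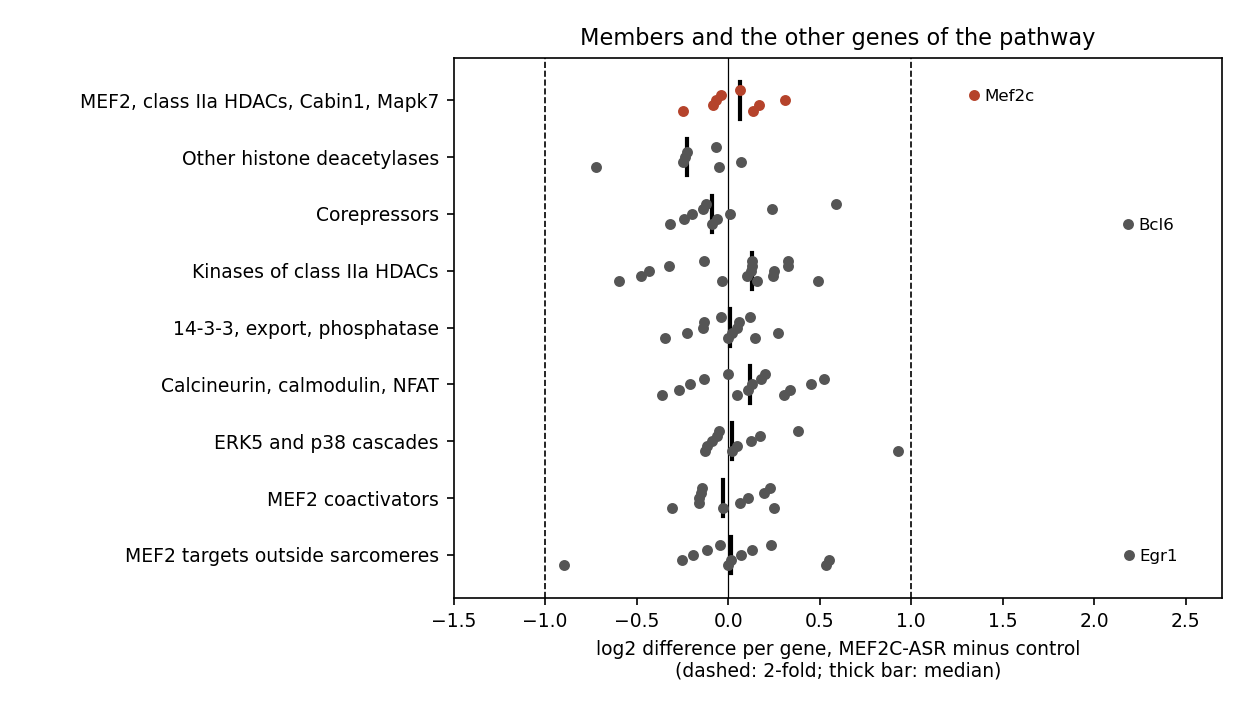
Log2 difference per gene, MEF2C-ASR minus control, for the members and the 8 lists (dashed lines: 2-fold, thick bars: medians). Mef2c, Bcl6 and Egr1 are the points past 2-fold.

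The other histone deacetylases (class I, IIb and IV) had a median of -0.23, with 6 of 7 below 0. Hdac1 gave 19646 in MEF2C-ASR cells and 19157 in control cells, a difference of 0.07, and Hdac2 differed by -0.05. Hdac11, the class IV enzyme, was dim, at 33.9 in MEF2C-ASR cells and 57.2 in control cells, a difference of -0.72. The median over the corepressors that bind class IIa deacetylases or MEF2 was -0.09, with 7 of 11 below 0. Bcl6, a repressor that recruits class IIa deacetylases, gave 630 in MEF2C-ASR cells and 142 in control cells, 4.55-fold and 2.19 on the log2 scale, at a single probe whose background was flagged as an outlier on the control array. Tbl1x, a subunit of the NCoR complex, gave 1184 in MEF2C-ASR cells and 807 in control cells, a difference of 0.59. Ncor1, the NCoR corepressor itself, differed by 0.24 with probes from -0.38 to 0.44.

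The kinase list covers kinases of class IIa deacetylases, which include calcium/calmodulin-dependent kinases, protein kinase D and salt-inducible kinases. It also holds kinases that act on these kinases, such as Camkk1. The median of the list was 0.13 over 16 of 21 genes, with 10 above 0. Camkk1, which activates the calcium/calmodulin-dependent kinases, gave 436 in MEF2C-ASR cells and 676 in control cells, a difference of -0.60. Camk1 differed by 0.33 and Camk1g by -0.13. The 14-3-3 proteins, the export receptor and the phosphatase had a median of 0.01 over 12 genes, and none differed by 1.5-fold. Ywhab, a 14-3-3 protein, differed by -0.14. Ywhae differed by -0.35 with probes from -1.11 to 0.09. Calcineurin, calmodulin and NFAT genes had a median of 0.12 over 14, with 9 above 0 and 4 below. Of the catalytic subunits of calcineurin, Ppp3ca differed by 0.30 and Ppp3cb by 0.00.

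The ERK5 and p38 cascades had a median of 0.02 over 11 genes. Map2k5, the kinase that activates ERK5, gave a difference of 0.12, and Map3k2, above it in the cascade, 0.17. Mapk13, a p38 kinase, stood apart from the other genes of this list, with 9244 in MEF2C-ASR cells and 4980 in control cells, a difference of 0.93. MEF2 coactivators had a median of -0.03 over 11 genes, and none differed by 1.5-fold. The acetyltransferase genes Ep300 and Crebbp differed by 0.11 and 0.23. Known MEF2 targets outside sarcomeres had a median of 0.015 over 13 of 18 genes. Egr1, an immediate early transcription factor, gave 246 in MEF2C-ASR cells and 55.3 in control cells, a difference of 2.19 and 4.56-fold. Its probe was dim in control cells, where the lowest signal called well above background was 38.3. Arc, an activity-regulated gene of neurons, was dim on both arrays, at 30.1 in MEF2C-ASR cells and 57.5 in control cells, a difference of -0.90. Jun, another MEF2 target, differed by 0.015. Klf2 differed by 0.54 as a mean of probes that disagree, at -0.37 and 1.44.

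Genes with a MEF2 motif in a promoter window were also counted, without the members. Of 243 measured, 3 (1.23%) were at least 2-fold higher in MEF2C-ASR cells and 7 (2.88%) were lower, with a median of -0.01. Of 10506 measured genes without it, 1.76% were higher and 1.82% were lower, with a median of -0.03.

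The cells were checked against markers. All 9 myeloid progenitor genes were well above background on both arrays, with a summed signal of 256882 in MEF2C-ASR cells and 158282 in control cells. Mpo, a granule enzyme of myeloid progenitors, made up most of that gap, at 143027 in MEF2C-ASR cells and 68289 in control cells. T and B lymphocyte genes were above background in 5 of 6 with MEF2C-ASR and 3 of 6 in control, with summed signals of 766 with MEF2C-ASR and 638 in control. Erythroid genes were above it in 3 of 4 on each array (391 with MEF2C-ASR and 449 in control). Muscle genes were above it in 4 of 6 with MEF2C-ASR and 3 of 6 in control (summed signals 2419 with MEF2C-ASR and 2133 in control). Actc1 alone made up most of both muscle sums, at 2166 with MEF2C-ASR and 1907 in control. Fibroblast genes were above background in 3 of 4 with MEF2C-ASR and 2 of 4 in control (403 with MEF2C-ASR and 357 in control). The lowest signal called well above background was 19.98 in MEF2C-ASR cells and 38.3 in control cells, so these counts are not like for like. Cd79b, at 28.9 with MEF2C-ASR and 27.0 in control, was called with MEF2C-ASR alone. The same held for Myog, at 45.1 with MEF2C-ASR and 36.5 in control. Cd3g, Myh6, Tnnt2 and Pdgfra were not above background on either array. The part of cell composition in the member values was not tested, and fewer cells of a type and less RNA per cell cannot be told apart.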

How the data were processed

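Total RNA of 2 M/E cultures was amplified, labelled with Cy3 and put on 1-colour Agilent mouse arrays, per the labels' protocols. Each deposited value is the linear intensity of a spot, made with Feature Extraction 9.5.1.1 per the file headers, with background subtraction and no normalization between arrays. The deposited value table held the same values. For probe coordinates the files name no genome build, and it is otherwise not stated.

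Log2 processed signals were scaled by each array's 75th percentile over 43379 non-control spots. Spots flagged as feature outliers on either array (365) were left out, and spots of 1 probe were averaged. Probes were named through RefSeq (GRCm38.p6): 22951 by accession, 6659 by symbol and 3109 by older symbol, and 8455 kept the file's name. A gene's difference is the mean over its measured probes. At 2-fold a gene was counted only where these had 1 sign, and at 1.5-fold whatever their signs. The error-model standard error combines the scanner's 2 spot errors. With 1 array per group no test was run. Analyses used Python 3.11.15, pandas 2.3.3, statsmodels 0.14.6 and limma 3.58.1 (normexp). The main scaling alone was tested on simulated data, which held set shifts and spot error but no variation between cultures. Quantile scaling was done in numpy 2.4.6. Of each list, genes at least 1.5-fold apart (at most 4) and the first 2 measured are named, except for results not reported here. Members and lists were chosen with earlier results of these data known. The alternatives changed scaling, background correction, filter on dim probes, outlier flags and input. Promoter sequences are RefSeq's, and probe sequences were not used here. The number of arrays limits the precision.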

Additional observations from a re-analysis of the deposited data

How the results depend on the processing

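No paired analysis was possible because each group had 1 sample. Among alternative values of member probes, leaving aside normexp on all spots, 195 moved by less than the spot error and 17 by more. Most of the 17 came from spike-in scaling, which moved most member probes by more than their spot error. The rest came from normexp without spots of non-uniform background. The 195 include values that could not move. Settings that changed only the filter, the flags or the input left each member value as it was. Each member probe was printed once, and the deposited values equal the processed signals. The Mef2c difference stayed between 1.20 and 1.38 and past 2-fold in all 12 of these settings, which include those that could not change it. The Cabin1 probe at -0.86 ranged from -1.004 to -0.51. Scaling to spike-in spots moved the median of all measured probes to -0.17 (main -0.02), with 281 probes higher and 581 lower, against 391 and 435 in the main setting. It left the member median at -0.04 and put 1 member probe (Cabin1) and 1 list gene (Arc) at least 2-fold lower. It put 7 member probes above 0 and 11 below, against 12 and 6 in the main setting. Normexp on all spots gave a member median of -0.21, 0 member probes higher, 6 lower, 1 list gene higher, 26 lower and 9439 of all probes lower, with Mef2c at 0.94. A local background above 100 was found at 0 spots with MEF2C-ASR and at 7 in control. Leaving the 96 spots of flagged non-uniform background out of that fit, an alternative added after seeing the data, gave 203 probes higher and 169 lower. Keeping all probes gave 1314 higher, 1444 lower and 1 member probe lower, at Hdac9 (-1.81). Brighter probes alone gave 248 higher, 142 lower and 1 list gene higher, without Egr1. Leaving out any flagged spot gave 1 list gene higher, without Bcl6. Signs turned for the member median, which these 2 settings (spike-in scaling, normexp on all spots) put under 0. List medians near 0 turned in other settings too. With the percentile taken over probes well above background, the 14-3-3 list was at -0.03, the ERK5 and p38 list at -0.02 and the MEF2 targets at -0.02. The MEF2 coactivators were at 0.07 with brighter probes alone. Normexp on all spots put the Mef2a probes at -1.56, -1.89 and -0.24 and the calcineurin, calmodulin and NFAT median at -0.59. Dim probes are limited by background, and the spot errors leave out variation between cultures, RNA pools and labelling.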
